A study of Mus musculus with 6 samples.

Results

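Transcripts of 8 genes of nucleic acid sensing, Tmem173 (which encodes STING), Tbk1, Ikbke, Irf3, Mavs, Tlr3, Trex1 and Ticam1 (which encodes TRIF), were examined in Lewis cells, a mouse lung cancer line, kept for 24 hours with SD70 or with its vehicle DMSO. The genes were chosen by symbol and are 8 of the 16081 genes in the deposited tables. SD70 is an inhibitor of the histone demethylase KDM4C, and the comparison asks which transcripts of these sensing routes differ after a day with the drug. Each group had 3 samples of the same unmodified line, grown in DMEM medium with serum. No SD70 dose is given for this experiment in the sources used here, and although the study's methods state in general that experiments were repeated independently, the labels do not say whether the 3 samples of a group were separate cultures. The p-values measure the spread between these samples, which may then be technical. All samples come from 1 cell line and 1 time point.

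Cells detect nucleic acids in the wrong place by separate routes that meet at a shared kinase step. DNA in the cytosol is bound by the enzyme cGAS, whose cyclic dinucleotide product activates STING on the endoplasmic reticulum. Viral or self RNA in the cytosol is bound by RIG-I and MDA5, which act through MAVS on the mitochondrial surface, while double-stranded RNA in endosomes is bound by TLR3, which acts through TRIF. All 3 adaptors recruit TBK1 and its close relative IKK-epsilon, the product of Ikbke. These kinases phosphorylate IRF3, which then enters the nucleus and induces type I interferon and chemokine genes, and TREX1 is an exonuclease that removes cytosolic DNA before it can be sensed.

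The 6 libraries held between 15276744 and 17060424 counts, and no pair within a group agreed within sampling noise. A gene is said to pass the test where edgeR's quasi-likelihood fit gave it a Benjamini-Hochberg adjusted p under 0.01, and by this rule 5767 of 11552 genes tested passed (49.9%), with 25.8% higher and 24.2% lower with SD70. Once a log2 change of 1 or more, up or down, is also required (the fold minimum below), 5.90% passed. Kdm4c itself, whose protein SD70 inhibits, had 753 ± 34.6 normalized counts in DMSO samples and 765 ± 34.2 (SD, n = 3) in SD70 samples, a log2 fold change of 0.02 whose sign depended on the setting (-0.02 to 0.06 over 15 alternatives). Of the markers of epithelium, Epcam, Cdh1, Krt7 and Krt19 had 0 or 1 count in every library. Krt8, with 2382 to 4150 counts, and Krt18 were lower with SD70, at log2 values of -0.55 and -1.22. Of 17 epithelial and lung epithelial markers, 11 were listed and 4 tested, and 3 passed, all lower (75%, beside 49.9% of all genes). These markers do not settle the labelled adenocarcinoma origin, which was not tested. Of 14 immune markers, 9 were listed, and Ptprc, the general marker of blood cells, had 0 counts in the DMSO libraries and 1 or 2 in the SD70 libraries. The summed count of those 9 was 278 to 292 with DMSO and 195 to 222 with SD70, most of it Cd68, and 28 to 47 and 30 to 47 without Cd68. The 2 endothelial markers summed to 56 to 69 and 61 to 65, and the 2 markers of mural cells and fibroblasts to 605 to 610 and 1426 to 1656, nearly all Pdgfrb. In such bulk RNA, fewer cells of a type and less RNA per cell cannot be told apart, and the part of these markers' cells in the results below was not tested.

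Ikbke showed the largest rise of the 8 genes and Ticam1 the largest fall, while Tbk1, the paralog of Ikbke, moved little, and for this reason the bases before their starts are shown. RefSeq gives windows from 250 bases before to 50 after a transcription start on GRCm38.p6, and all of the 8 genes except Tmem173 were matched, to 8 windows in all, by gene identifier. Only the part before the first annotated exon on either strand is printed, read 5′ to 3′ on the strand of the gene, which is the minus strand for all 3. Capitals mark each CG dinucleotide, the feature in which the 3 stretches differ most visibly. The Ikbke stretch (chr1:131279607-131279813, 207 bases, from 250 to 44 bases before the RefSeq start), the Tbk1 stretch (chr10:121586795-121587044, 250 bases, up to the base before the start) and the Ticam1 stretch (chr17:56276787-56277017, 231 bases, from 250 to 20 bases before the start) read as follows.
Ikbke: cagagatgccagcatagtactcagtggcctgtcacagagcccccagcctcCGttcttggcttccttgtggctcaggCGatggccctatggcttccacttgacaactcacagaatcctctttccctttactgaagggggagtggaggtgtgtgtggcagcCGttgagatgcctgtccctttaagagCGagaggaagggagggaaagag
Tbk1: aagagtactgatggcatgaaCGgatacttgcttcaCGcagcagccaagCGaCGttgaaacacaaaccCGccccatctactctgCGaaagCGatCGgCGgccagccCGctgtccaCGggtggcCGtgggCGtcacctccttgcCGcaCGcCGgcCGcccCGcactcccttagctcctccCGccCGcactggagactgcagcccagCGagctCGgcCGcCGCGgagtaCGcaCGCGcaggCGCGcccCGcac
Ticam1: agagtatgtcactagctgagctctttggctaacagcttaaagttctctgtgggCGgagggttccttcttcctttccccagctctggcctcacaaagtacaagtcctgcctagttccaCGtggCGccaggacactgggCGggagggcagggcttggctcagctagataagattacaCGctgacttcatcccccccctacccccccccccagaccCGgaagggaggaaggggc

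The Ikbke stretch held 4 CG dinucleotides and the Ticam1 stretch 6, against 31 in the Tbk1 stretch. Over the whole windows of 300 bases, the counts were 4 for Ikbke, 10 for Ticam1 and for Tlr3, 18 for Irf3, 19 for Mavs and 37 for Tbk1, with 7 and 5 in the 2 windows of Trex1, and the median of all 32851 windows was 7. The G and C content ran from 51.0% for Tlr3 to 69.0% for Tbk1, beside a median of 52.7%. In the same windows 5 motifs were searched on both strands, without regard to overlap between them. The interferon-stimulated response element GAAANNGAAA, which IRF proteins bind, is present in 3.44% of all windows and in none of the 7 genes with a window, and the same was true of the cyclic AMP response element TGACGTCA (1.79%) and of TGATGNAA, an ATF4 element (3.97%). The AP-1 letters TGANTCA, in 7.81% of windows, were found, of these 7, in Ikbke alone, from 6 bases before the start to the start itself, which is in an exon of another annotated transcript and so outside the printed stretch. A match to the NF-kB consensus, in 8.46% of windows, was found for Tlr3 and for 1 window of Trex1. The whole Tlr3 window lies within the annotated gene and opens in an exon, so that match is not upstream of all its transcripts. A match is a description of the letters and no evidence of binding.

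All 8 genes had enough counts to be tested. With SD70, 3 rose (Ikbke, Irf3 and Tlr3), 2 fell (Ticam1 and Tmem173), and Tbk1, Mavs and Trex1 did not pass the test. A share of 62.5%, beside 49.9% of all genes tested, is not a result about these genes as a set. With the fold minimum, 0 of the 8 passed, beside 5.90% of all genes. The median log2 fold change of the 8 was 0.11, where the median of all genes was -0.00 and the median size of a change was 0.25. In 6 of the 8 genes the samples of the groups did not overlap, and the share over all genes was 64.4%. For each such gene a two-sided exact permutation test over the 6 samples gave p = 0.1, the smallest value that 3 against 3 allows.

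**Figure D1:**
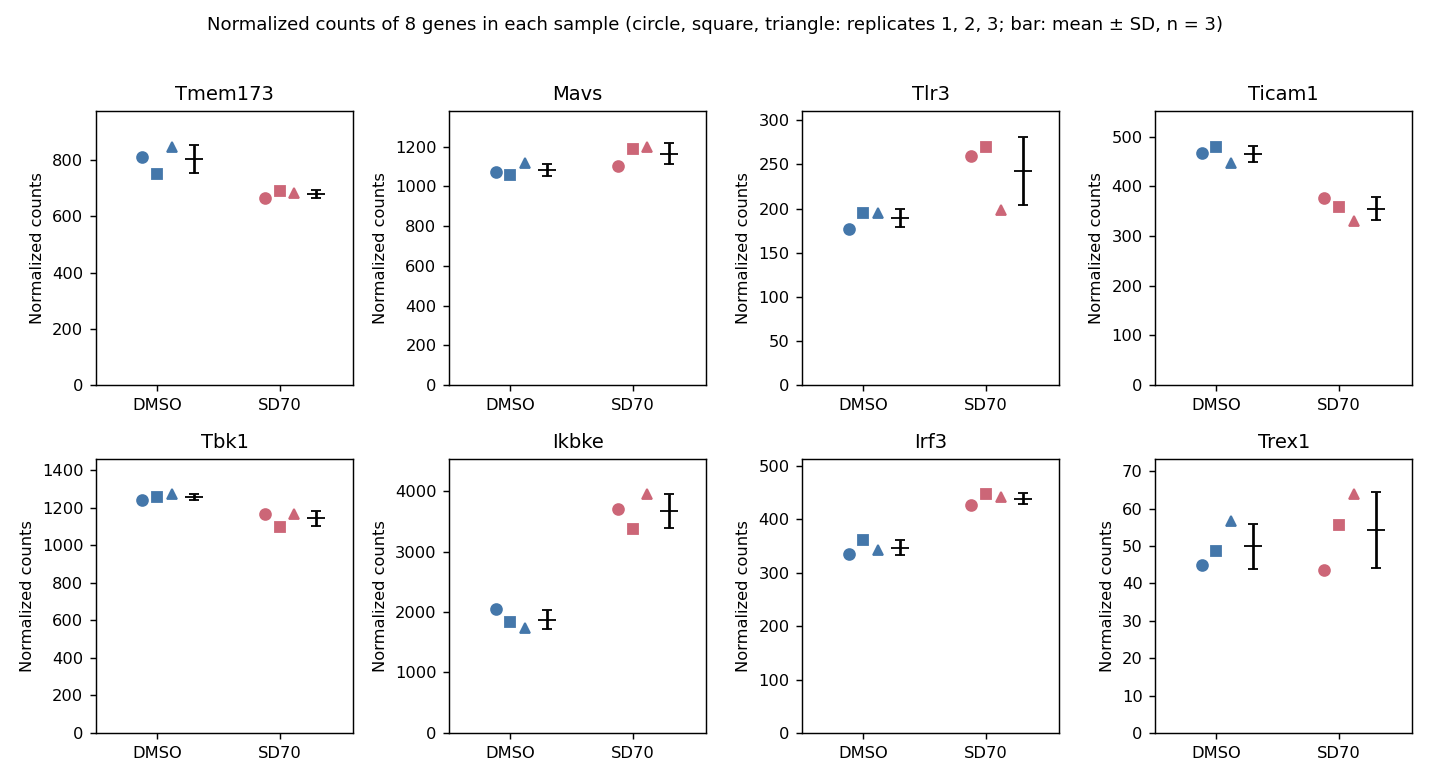
Normalized counts (counts scaled to a common library size, y axis from 0) of the 8 genes in each DMSO and SD70 sample, with mean ± SD (n = 3) as bars. Ikbke runs from 1740 to 2050 with DMSO and from 3379 to 3945 with SD70, while the Mavs and Trex1 samples of the groups overlap and SD70 replicate 3 of Tlr3 lies next to the DMSO samples.

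The kinases diverged. Ikbke (NCBI Gene 56489, chr1:131254600-131279601 on GRCm38.p6) had 2050, 1838 and 1740 normalized counts in DMSO samples 1 to 3 and 3697, 3379 and 3945 in SD70 samples 1 to 3. The lowest SD70 sample was thus far above the highest DMSO sample. Its mean rose from 1876 ± 159 to 3674 ± 284 (SD, n = 3), a 1.96-fold rise and a log2 fold change of 0.97 (SE 0.0607, 95% interval 0.84 to 1.09, adjusted p = 7.72e-14, edgeR). This was a larger change than in 93.3% of the genes tested. The change fell just short of the fold minimum, and leaving out DMSO replicate 1 (1.04) or SD70 replicate 2 (1.03) took it past that line. Its exons share 159 of 9018 bases with the antisense gene Gm28914 and 65 with Gm28913, and the strand of the reads is not given in the sources used here.

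Tbk1 (56480, chr10:121546455-121586794) had 1241, 1258 and 1271 normalized counts with DMSO and 1168, 1096 and 1167 with SD70. Every SD70 sample was below every DMSO sample, but by a small margin. The means were 1257 ± 14.6 and 1144 ± 41.2 (SD, n = 3), with a log2 fold change of -0.14 (SE 0.0558, 95% interval -0.25 to -0.02) that did not pass the test (adjusted p = 0.0350, edgeR). With library totals alone in place of TMM factors it was -0.17 and passed (adjusted p = 0.00718).

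Per length, the FPKM ratio of Ikbke to Tbk1 was 1.68, 1.48 and 1.39 with DMSO and 3.23, 3.14 and 3.40 with SD70. Averaged, the ratio was 1.52 ± 0.15 and 3.25 ± 0.13 (SD, n = 3), with no overlap between the groups. The FPKM sum of the pair was 67.4 ± 3.39 with DMSO and 102 ± 6.32 with SD70, and Ikbke made up 60.2% and 76.5% of it. Ratio and sum were chosen after the values were seen and are given as a description.

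**Figure D2:**
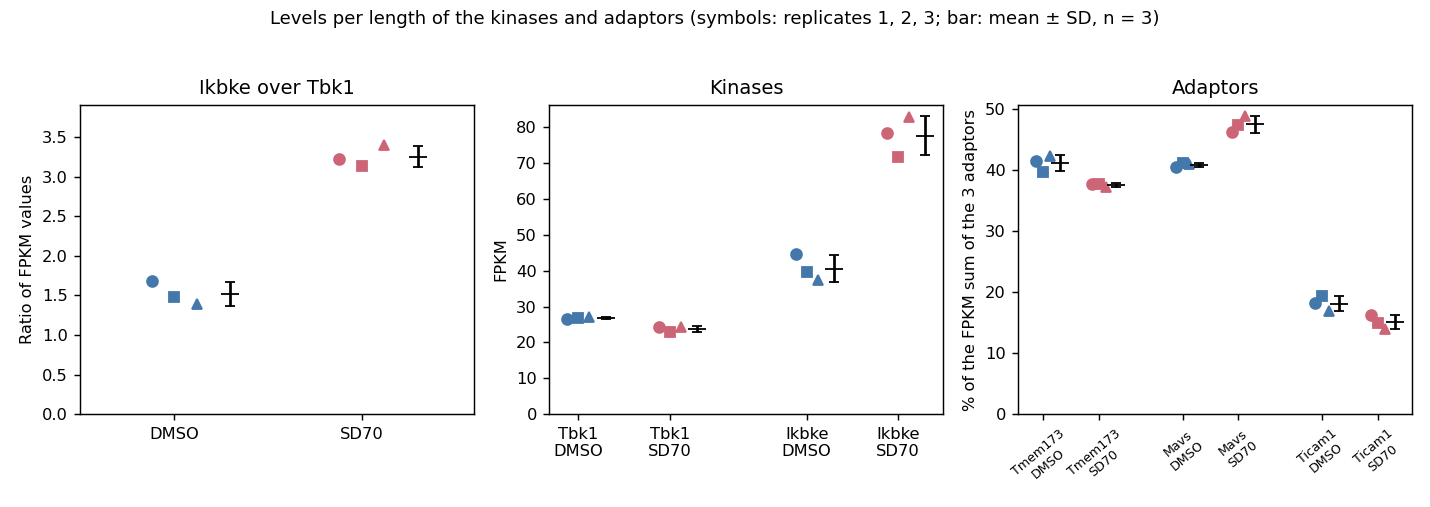
Left, FPKM ratio of Ikbke to Tbk1; middle, FPKM of each kinase; right, the percent of the summed FPKM of Tmem173, Mavs and Ticam1 that each adaptor made up, per sample with mean ± SD (n = 3). The ratio lies between 1.39 and 1.68 with DMSO and between 3.14 and 3.40 with SD70, and the Mavs share is higher in every SD70 sample than in every DMSO sample.

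The adaptors did not move together. Ticam1 (106759, chr17:56269462-56276767), the adaptor of TLR3, had 468, 479.8 and 448 normalized counts with DMSO and 377.5, 358 and 330.04 with SD70. All SD70 samples were below all DMSO samples. The mean fell from 465 ± 16.1 to 355 ± 23.9 (SD, n = 3), a log2 fold change of -0.39 (SE 0.0772, 95% interval -0.54 to -0.23, adjusted p = 5.77e-05, edgeR), and this call held under all 15 alternative settings, from -0.43 to -0.34.

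Tmem173 (72512, listed in RefSeq as Sting1, on chromosome 18 from 35733678 to 35740554) had 813, 749.8 and 848 normalized counts with DMSO and 665, 690.2 and 683 with SD70. The groups were separate, with SD70 lower. The mean fell from 803 ± 49.6 to 679 ± 13.2 (SD, n = 3), a change of -15.4% and a log2 fold change of -0.24 (SE 0.0644, 95% interval -0.37 to -0.11, adjusted p = 0.00159, edgeR). Without DMSO replicate 3 the change was -0.21 and did not pass (adjusted p = 0.0169).

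Mavs (228607, chr2:131234063-131248025) had 1075, 1059 and 1119 normalized counts with DMSO and 1103, 1188 and 1200.3 with SD70. One SD70 sample lay within the DMSO range. The means were 1084 ± 31.3 and 1164 ± 52.9 (SD, n = 3), with a log2 fold change of 0.10 (SE 0.0575, 95% interval -0.02 to 0.22) that did not pass the test (adjusted p = 0.127, edgeR), here or under any of the 15 alternatives (0.06 to 0.14). A rise of more than 0.22 on the log2 scale is outside that interval.

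The FPKM sum of the 3 adaptors was 59.1 ± 1.59 with DMSO and 53.1 ± 1.02 with SD70 (SD, n = 3). Tmem173 made up 41.1% of it with DMSO and 37.5% with SD70, and Ticam1 18.1% and 15.1%. Mavs made up 40.8% and 47.4%. The 2 adaptors on the DNA and RNA routes were thus about level per length in DMSO samples, and Mavs was the more abundant in each SD70 sample. These shares too were chosen after the values were seen.

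Tlr3 (142980, chr8:45395665-45411075), the 1 endosomal nucleic acid receptor listed here with over 11 counts in any library, had 177, 195.2 and 195 normalized counts with DMSO and 259.8, 270.1 and 198 with SD70. SD70 samples 1 and 2 were well above the DMSO samples, whereas SD70 sample 3 was within 3 normalized counts of the highest of them. The means were 189 ± 10.2 and 243 ± 39.0 (SD, n = 3), and the log2 fold change of 0.36 passed the test (SE 0.108, 95% interval 0.14 to 0.58, adjusted p = 0.00418, edgeR). This call was lost in 8 of 15 alternatives, among them leaving out DMSO replicate 1 (0.32, adjusted p = 0.0228), SD70 replicate 1 (0.32, adjusted p = 0.0310) and SD70 replicate 2 (0.28, adjusted p = 0.0492), and without SD70 replicate 3 it was 0.48. In FPKM the groups overlapped, with 2.59 to 2.81 in DMSO samples and 2.77 to 3.75 in SD70 samples. Of its exon bases, 381 of 5207 overlap the antisense gene Gm45542.

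Irf3 (54131, chr7:44997648-45002848), the transcription factor at the end of all these routes, had 335, 362 and 343 normalized counts with DMSO and 427, 447 and 442 with SD70. The groups were well apart, with SD70 higher. The mean rose from 347 ± 13.9 to 439 ± 10.3 (SD, n = 3), a 1.26-fold rise and a log2 fold change of 0.34 (SE 0.0763, 95% interval 0.18 to 0.49, adjusted p = 2.67e-04, edgeR) that passed in all 15 alternatives. The gene shares 88 of 3442 exon bases with Bcl2l12, a protein-coding gene on the opposite strand, which had 72.6 normalized counts with DMSO and 64.0 with SD70 and a log2 fold change of -0.18 (adjusted p = 0.331). A change in phosphorylation, by which IRF3 is activated, cannot be seen in transcript counts.

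Trex1 (22040, chr9:109057932-109059723) was low, with 44.8, 48.6 and 56.6 normalized counts with DMSO and 43.6, 55.6 and 63.8 with SD70. The groups overlapped, with SD70 samples below, within and above the DMSO range. Its log2 fold change was 0.12 (SE 0.187, 95% interval -0.26 to 0.50, adjusted p = 0.616, edgeR). Values within that interval, no change included, could not be told apart, and without SD70 replicate 3 the log2 fold change was -0.02. All 1147 of its exon bases lie in exons of Atrip on the same strand, so reads may have been split between them and the Trex1 value is uncertain. Atrip had 258 ± 8.54 and 271 ± 33.6 normalized counts (SD, n = 3), a log2 fold change of 0.07 (adjusted p = 0.542).

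**Figure D3:**
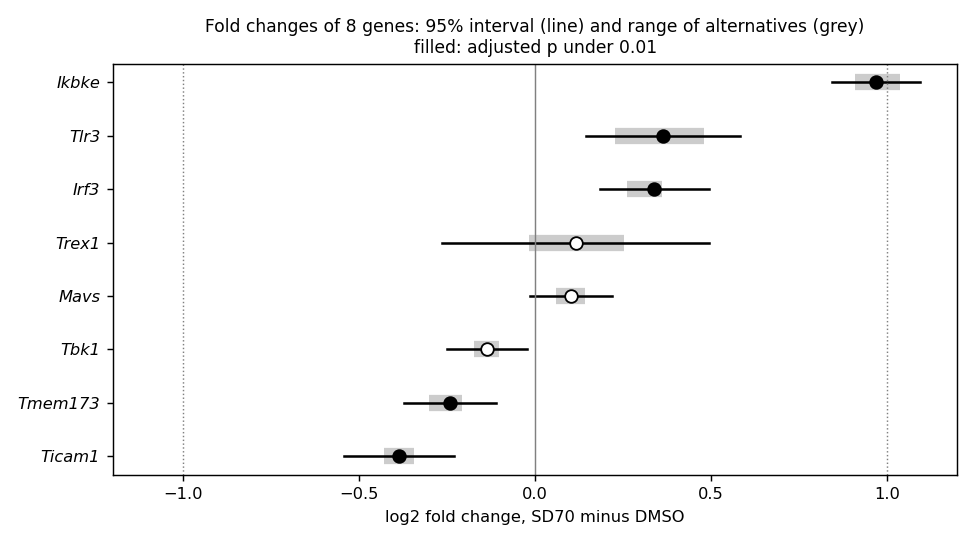
Log2 fold change (SD70 minus DMSO, x axis) of the 8 genes, with the 95% interval as a line and the range over 15 alternative settings as a grey band; filled points passed the test and dotted lines mark the fold minimum. Ikbke stands at 0.97 with a band from 0.91 to 1.04, and the other genes lie between -0.39 and 0.36.

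Levels of different genes were compared as FPKM, which is scaled by length. With DMSO the order was Ikbke (40.6 ± 3.64), Tbk1 (26.8 ± 0.25), Tmem173 (24.3 ± 1.44), Mavs (24.1 ± 0.59), Irf3 (13.9 ± 0.36), Ticam1 (10.7 ± 0.43), Trex1 (3.42 ± 0.36) and Tlr3 (2.73 ± 0.12; SD, n = 3). Of neighbours in this order, the samples of Tmem173 and Mavs overlapped and those of the other pairs did not. With SD70 the order was Ikbke (77.7 ± 5.53), Mavs (25.2 ± 1.07), Tbk1 (23.9 ± 0.84), Tmem173 (19.9 ± 0.42), Irf3 (16.8 ± 0.29), Ticam1 (7.99 ± 0.52), Trex1 (3.64 ± 0.69) and Tlr3 (3.39 ± 0.54; SD, n = 3). Here Mavs and Tbk1 overlapped, and Trex1 and Tlr3 did too. Among all genes tested, the mean level of Ikbke was above that of 87.2% and the mean level of Tlr3 above that of 19.1%.

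For the other genes of the routes, lists by role were counted in the same fit. Over 8 lists with 145 genes tested, the 8 genes included, 52 were higher and 24 lower, or 52.4%, beside 49.9% of all genes, and 16 passed with the fold minimum, or 11%, beside 5.90% of all genes. Of the 16, 7 are genes that IRF3 is known to induce, several of which entered the test only through their SD70 samples, and without that list 9 of 131 passed with the fold minimum (6.87%) and 50.4% without it. The median log2 fold change of all 145 was 0.10. Without the 8 genes, 49 were higher and 22 lower of 137.

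**Figure D4:**
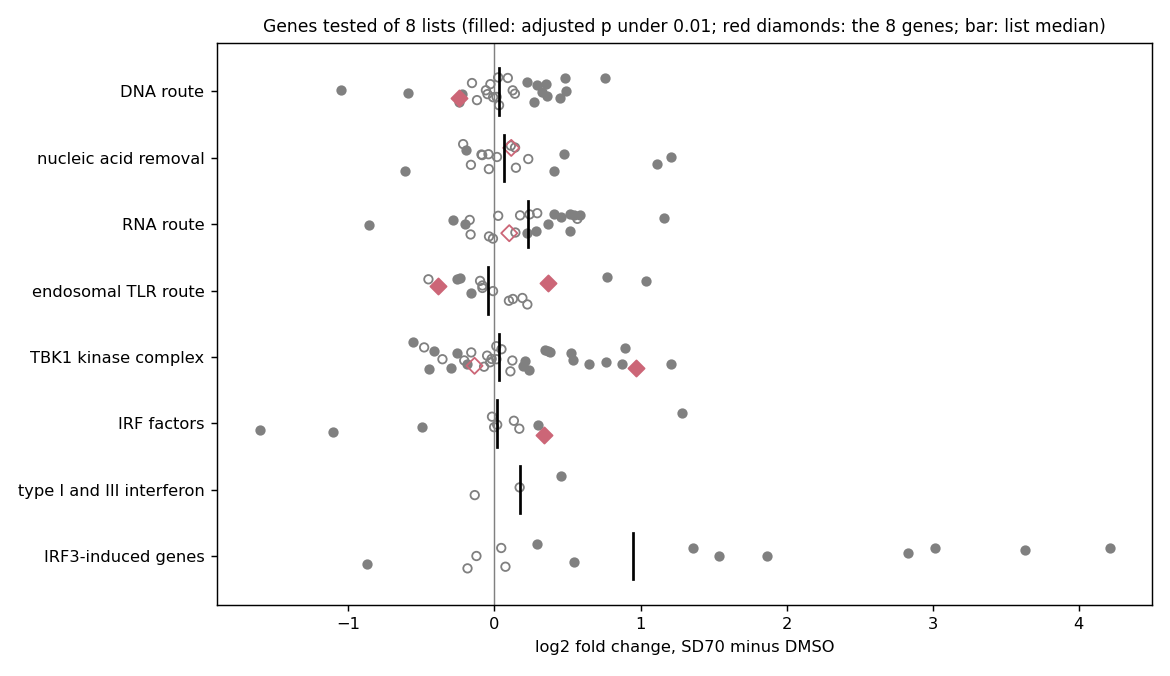
Log2 fold change (SD70 minus DMSO, x axis) of each tested gene of the 8 lists (rows), filled where it passed the test, with the 8 genes as red diamonds and the median of each list as a bar. List medians lie between -0.05 and 0.23 except for the genes that IRF3 is known to induce, whose median is 0.95, with a point at 3.01 for Cxcl10; several of these genes were tested only through their SD70 samples, so their median does not set the list apart.

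On the DNA route, 10 genes rose and 5 fell of 27 tested (55.6%, beside 49.9% of all genes), with a median log2 fold change of 0.03. The sensor cGAS (gene Cgas) rose from 105 ± 5.60 to 178 ± 13.0 normalized counts (SD, n = 3), a log2 fold change of 0.76 (adjusted p = 1.17e-06, edgeR; 0.50 with limma on log2(FPKM + 1)), the opposite direction to its adaptor Tmem173. Ifi204, a DNA-binding gene of the interferon-inducible p200 family whose similar copies may share reads, fell from 155 ± 18.6 to 74.4 ± 13.4, or by 1.05 on the log2 scale (adjusted p = 8.62e-08, edgeR). Rnf26, which encodes a ubiquitin ligase that acts on STING, fell from 659.9 ± 14.6 to 439 ± 50.1, with a change of -0.59 (adjusted p = 3.09e-08, edgeR).

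Among genes that remove or edit nucleic acids, 4 rose and 2 fell of 18 tested, which is 33.3%, beside 49.9% of all genes, and Trex1 was among the 12 that did not pass. At an adjusted p under 0.05, 11 of the 18 passed, beside 6953 of all 11552 genes. Adar, which edits adenosines in double-stranded RNA and so keeps it from MDA5, rose from 632 ± 20.8 to 1368 ± 91.3 normalized counts (SD, n = 3), a log2 fold change of 1.11 (adjusted p = 4.44e-17, edgeR). Rnaseh2c, a subunit of the enzyme that cleaves RNA in RNA and DNA hybrids, fell by 0.61 (adjusted p = 3.12e-07, edgeR), while Rnaset2a rose by 0.47 (adjusted p = 4.92e-05) with the caution that it has the near-identical copy Rnaset2b.

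The RNA route had 10 genes higher and 3 lower of 24 tested (54.2%, beside 49.9% of all genes), with a median of 0.23. Ddx58, which encodes RIG-I, had 782 ± 50.0 and 681 ± 31.2 normalized counts (SD, n = 3) and a log2 fold change of -0.20 (adjusted p = 0.00960, edgeR). This was just inside the threshold and was lost in 8 of 15 alternatives, among them without DMSO replicate 1 (-0.15), DMSO replicate 2 (-0.22), SD70 replicate 2 (-0.20) or SD70 replicate 3 (-0.17). Ifih1, which encodes MDA5, had 17.5, 21.4 and 10.5 normalized counts with DMSO and 21.3, 27.8 and 24.2 with SD70, which overlapped (log2 fold change 0.57, adjusted p = 0.0861). Its change was 0.32 without DMSO replicate 3, 0.79 without DMSO replicate 2 and 0.09 with limma on log2(FPKM + 1), and it passed in no alternative. Rnf125, a ubiquitin ligase that marks RIG-I and MAVS for degradation, rose from 1129 ± 24.5 to 2522 ± 183, a change of 1.16 (adjusted p = 1.37e-18). Gpatch3, which disrupts the MAVS complex, rose by 0.58 (adjusted p = 6.82e-04), and Oas3, which makes the activator of RNase L, had a change of -0.86 (adjusted p = 1.39e-05), or -0.46 with limma on log2(FPKM + 1).

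Of 16 tested genes of the endosomal route, 3 rose and 4 fell (43.8%, beside 49.9% of all genes), with Tlr3 and Ticam1 on opposite sides. The count of 7 became 4 without DMSO replicate 1, without SD70 replicate 2 and with limma on log2(FPKM + 1) with no filter. The receptors Tlr7, Tlr9 and Tlr13 had at most 11 counts in any library. Myd88, the adaptor that those receptors use in place of TRIF, rose from 376 ± 24.6 to 773 ± 39.9 normalized counts (SD, n = 3), a log2 fold change of 1.04 (adjusted p = 1.72e-14, edgeR). Cd14, a coreceptor that takes up nucleic acids and lipopolysaccharide, rose by 0.77 (adjusted p = 5.12e-10).

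Around the kinases, 14 genes rose and 6 fell of 34 tested (58.8%, beside 49.9% of all genes), Ikbke among them. With the fold minimum, 2.94% passed, beside 5.90% of all genes. In the DNA, RNA and endosomal routes this share was 3.7%, 4.17% and 6.25%, and in nucleic acid removal 11.1%. It was 27.3% for the IRF factors, 0% for the interferon list and 50% for the IRF3-induced genes. Several of the IRF3-induced genes were tested only through their SD70 samples. Tnfaip3, which encodes the ubiquitin-editing inhibitor A20, rose from 368 ± 35.3 to 848 ± 84.1 normalized counts (SD, n = 3), a log2 fold change of 1.21 (adjusted p = 8.90e-15, edgeR). Sqstm1, an autophagy receptor that TBK1 phosphorylates, rose by 0.89 (adjusted p = 9.32e-16). The scaffolds that hold the kinases, chosen here after their values were seen, went both ways, with Tank at 0.76 and Azi2 at 0.23 but Tbkbp1 at -0.56.

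Among the interferon regulatory factors and their cofactors, 3 rose and 3 fell of 11 tested (54.5%, beside 49.9% of all genes). Irf1 rose from 283 ± 13.0 to 690.4 ± 56.9 normalized counts (SD, n = 3), a log2 fold change of 1.29 (adjusted p = 4.38e-16, edgeR), well beyond the 0.34 of Irf3. Irf8 and Irf5, both prominent in myeloid cells, fell, at log2 values of -1.61 (adjusted p = 8.88e-15) and -1.10 (adjusted p = 3.31e-05). With limma on log2(FPKM + 1) the Irf5 value was -0.61, short of the fold minimum. Of the listed immune markers, Cd68 fell by 0.48 in the same samples, the other 8 summed to 28 to 47 counts with DMSO and 30 to 47 with SD70, with Ptprc at 0 in the DMSO libraries, and Cd14, another gene prominent in monocytes, was among those that rose. Their part in the Irf8 and Irf5 values was not tested. Irf7, the factor that amplifies interferon production, had 5 to 10 counts with DMSO and 9 to 12 with SD70, which is too few to test.

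Ifnb1, the gene of interferon beta, had 0 counts in 5 libraries and 1 in SD70 replicate 3, and was not tested. Of 3 tested genes of interferons and their receptors, 1 passed (33.3%, beside 49.9% of all genes). This was Il10rb, a receptor chain for type III interferon, with a change of 0.46 (adjusted p = 1.85e-05, edgeR). The count was 2 without DMSO replicate 1 or with library totals alone. Of 14 tested genes that IRF3 is known to induce, 9 were higher and 1 lower (71.4%, beside 49.9% of all genes), with a median of 0.95. Several of them entered the test only through their SD70 samples, so this count does not stand as support. Cxcl10 had 16.6, 18.5 and 19.2 normalized counts with DMSO and 139, 141 and 161 with SD70, a log2 fold change of 3.01 (adjusted p = 1.90e-16). Gbp2 and Isg15 rose from 7.42 ± 1.14 to 53.6 ± 5.13 and from 15.1 ± 4.72 to 55.6 ± 3.46 (SD, n = 3), with log2 fold changes of 2.83 and 1.86 (adjusted p = 6.34e-11 and 3.25e-08, edgeR). Gbp2 was tested only through its SD70 samples, and its change was 1.00 with limma on log2(FPKM + 1), a scale that shrinks the changes of low genes.

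The genes whose log2 levels over the 6 samples were most like those of Ikbke, among 9623 with a mean of at least 100 normalized counts, were Atf6 (Pearson r = 0.999), Klf7 (0.999) and Zfp180 (0.998). For Ticam1, Hltf (0.998) and Scara3 (0.998) were among the most alike. The 6 points fall into the 2 groups and share their libraries, and 1414 genes had an r above 0.95 with Ikbke and 717 with Ticam1, so this likeness is shared by many genes that differ between the groups.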

How the data were processed

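RNA-seq was measured in 3 DMSO and 3 SD70 samples of Lewis cells. The authors aligned BGISEQ-500 reads with HISAT to GRCm38.p6, according to the study's methods. The submitters' processing notes name StringTie 1.3.3b and the build mm8, and which build the counts rest on was not settled. Per gene, the authors deposited an expected count, not normalized, and a value that behaves as FPKM (count per length and library size; the implied length varied by 0.719% between samples). Expected counts were rounded (all were whole for the 8 genes), filtered with filterByExpr, scaled by TMM and tested with glmQLFit (robust) and glmQLFTest of edgeR 4.0.16 in R 4.3.3, with Benjamini-Hochberg adjustment over 11552 genes. For normalized counts, the effective library sizes of the 6 samples were brought to their mean. Intervals use the test's standard error and degrees of freedom. The fit was first run on simulated data with 200 genes changed by a log2 value of 1. It called all 200, and 3 unchanged genes. Changes as small as most of those called among the 8 genes were not simulated.

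The members and lists were chosen with earlier results of these data known. Named genes are the 8 members, per list up to 3 genes with the largest absolute log2 fold change among those with an adjusted p under 0.01, separate groups and a mean of at least 20 normalized counts, the sensors and products Cgas, Ddx58, Ifih1, Irf7, Ifnb1 and Cxcl10, Kdm4c, the defining markers, and the 3 genes most like Ikbke and Ticam1, of which 1 is not reported here. Tank, Azi2, Tbkbp1 and the copy Rnaset2b fall outside this rule. Samples numbered alike in the labels deviated together from their group means (Pearson r = 0.176, 0.254 and 0.157 over 9623 genes), so the number was used as a block in an alternative. Other alternatives were other scalings and filters, DESeq2 1.42.0, limma 3.58.1 on log2(FPKM + 1) and log2(FPKM + 0.1), a threshold of 0.05 and leaving out each sample. Promoter windows and positions are from RefSeq, exon overlaps from GENCODE M21.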

Additional observations from a re-analysis of the deposited data

How the results depend on the processing

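Under the replicate block, the same 5 of the 8 genes passed, 692 genes passed with the fold minimum (681 without the block) and 5913 without it (5767), so the block changed no call among the 8. The directions of Ikbke, Irf3, Tlr3, Mavs, Tbk1, Tmem173 and Ticam1 held under all 15 alternatives, and that of Trex1 did not (-0.02 to 0.25, never passing). Limma on log2(FPKM + 1) left 283 genes past the fold minimum, with and without the filter on low values. Over the fits that left out 1 sample, 4 to 5 of the 8 passed, and 0 to 1 with the fold minimum. In those fits Tmem173 ranged from -0.30 to -0.21 and Tlr3 from 0.28 to 0.48. Tlr3 did not pass with DESeq2 (0.36, adjusted p = 0.0157), with limma on log2(FPKM + 0.1) (0.29) or log2(FPKM + 1) (0.23, with and without the filter), or with library totals alone (0.33, adjusted p = 0.0106). Tbk1 passed with library totals alone (-0.17) and at an adjusted p under 0.05 (-0.14). For 4 lists the count of genes that passed moved by more than 1.5 times: the endosomal route from 7 to 4 with limma on log2(FPKM + 1) and no filter, and when DMSO replicate 1 or SD70 replicate 2 was left out, nucleic acid removal to 11 of 18 at an adjusted p under 0.05 (6953 of all genes), the interferon list from 1 to at most 3, and the IRF3-induced genes to 5 where 10 or more counts were required in each sample. The cause was not tested. With 3 samples a group, changes as small as that of Mavs could not be told from none. Trex1 had about 50 counts a library and shares all its exon bases with Atrip, and the part of each in its wide interval was not tested.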
